A study of Mus musculus with 6 samples.

Results

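The tissue inhibitors of metalloproteinases (Timp genes) and a set of matrix metalloproteinases (Mmp genes) were followed in the caudal artery, which supplies the tail, of mice with and without Notch3. The members were 4 inhibitor genes, Timp1 to Timp4, and 6 enzyme genes, Mmp2, Mmp3, Mmp9, Mmp11, Mmp14 and Mmp23. They were found as the probe sets whose one gene symbol in the platform annotation is a member, which gave 24 probe sets of 34945 with 1 symbol, or 10 genes of 18193. The family was picked with genotype differences from these same arrays in view, among them that of Timp4. The differences between genotypes are therefore a description of the members and no independent test of the family.

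The groups were Notch3-/- mice and Notch3+/+ mice, both at 4 weeks of age (postnatal day 28), with 3 arrays each. Every array measured RNA pooled from several mice, 4 in each Notch3-/- pool and 4, 3 and 3 in Notch3+/+ pools 1 to 3, so the spread between arrays is a spread between pools. Neither the targeted allele nor the strain is named in the sources used here. Values are log2 expression values from Affymetrix MOE430 2.0 arrays, on which several short probes form a probe set, and a difference of 1 is a 2-fold difference.

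Timp proteins are small secreted inhibitors that bind the active site of matrix metalloproteinases, zinc enzymes that cut collagens, elastin, proteoglycans and other proteins of the extracellular matrix. In the arterial wall, smooth muscle cells, adventitial fibroblasts and leukocytes can make both, and their balance sets how fast matrix is turned over. Notch3 is a receptor of arterial smooth muscle, and Timp3 protein has been found in the vessel deposits of CADASIL, the human small vessel disease caused by NOTCH3 mutations.

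Notch3 checked the labels: its brighter probe set read 6.51, 6.44 and 5.87 in the Notch3-/- pools, against 9.94, 9.95 and 10.09 in the Notch3+/+ pools. Smooth muscle markers were all present, 7 of 7 above the filter on low values, as were 9 of 9 macrophage and 8 of 8 adventitial fibroblast markers, while 4 of 6 neutrophil markers lay below it. Notch3-/- pool 2 stood apart, at 39.5 on a first principal component that held 45.2% of the variance, against 5.85 or less for the other arrays. Array medians ran from 4.50 to 4.57, and 27027 probe sets passed the filter, a mean of at least 3.825 over the 6 arrays. Of these, limma called 68, or 0.252%, at an adjusted p under 0.05. Of the 24 member probe sets, 21 passed the filter; both sets of Mmp9 and 1 of 6 for Timp2 did not. Among the 21, limma called 2, both of Timp4 and both lower, where 0.115% of all probe sets were lower and 0.137% higher, and 3 had an unadjusted p under 0.05, where 11.4% of all did. Since the members were picked with this contrast in view, nothing is read from these shares. Probe sets of a gene are numbered from the brightest, set 1, downward.

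Most of the inhibitor genes are nested in other genes. In the RefSeq annotation of GRCm38.p6, Timp1, Timp3 and Timp4 each lie inside a synapsin gene, Syn1, Syn3 and Syn2. Timp1 and Timp4 are read from the strand opposite to their host gene. No strand was at hand for Syn3 in the sources used here, so Timp3 was not compared in this way. The 250 bases before the start of these nested inhibitors are shown because 1 of them, Timp4, had much lower RNA in Notch3-/- arteries while the others did not pass the test. Capitals mark TGGGAA, the core recognised by RBPJ, the DNA-binding partner of Notch, on either strand. Each window is written 5′ to 3′ on the gene's own strand, from RefSeq GRCm38.p6.
Timp4, chr6:115252206-115252455, minus strand: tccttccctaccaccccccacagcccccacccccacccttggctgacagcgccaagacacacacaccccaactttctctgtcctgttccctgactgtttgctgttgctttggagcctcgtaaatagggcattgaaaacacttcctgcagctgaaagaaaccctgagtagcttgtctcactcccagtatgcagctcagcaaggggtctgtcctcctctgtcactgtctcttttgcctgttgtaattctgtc
Timp1, chrX:20869916-20870165, plus strand: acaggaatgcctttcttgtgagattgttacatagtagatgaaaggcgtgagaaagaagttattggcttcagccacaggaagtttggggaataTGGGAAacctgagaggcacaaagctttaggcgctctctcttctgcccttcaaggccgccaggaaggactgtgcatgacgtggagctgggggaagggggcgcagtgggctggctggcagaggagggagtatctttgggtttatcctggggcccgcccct
Timp3, chr10:86300162-86300411, plus strand: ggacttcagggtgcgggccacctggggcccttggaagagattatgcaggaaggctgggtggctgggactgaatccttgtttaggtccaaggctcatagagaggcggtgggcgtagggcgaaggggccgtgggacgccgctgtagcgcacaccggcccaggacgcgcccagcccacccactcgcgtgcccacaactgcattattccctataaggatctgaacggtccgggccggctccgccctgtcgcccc

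The RBPJ core occurred once among these windows, in Timp1, from base -158 to base -153 counted from the transcript start. It was found in 21.6% of the 32851 promoter windows of this length in the table. The AP-1 site, TGAGTCA or TGACTCA, is bound by Fos and Jun factors and was in 4.46% of windows. Of the 8 member genes with a promoter in the table, Mmp3 held it, at bases -46 to -40. The same window held the letters TATAAA at bases -7 to -2, a sequence in 12.4% of windows. Both positions are counted from the annotated start, which was not checked. The CArG box, bound by serum response factor in smooth muscle genes, was in 1.47% of windows and in none of those 8 member genes. Mmp2 and Mmp9 had no promoter in the table. These matches describe letters in a window and say nothing about binding, and a missing match holds for these 250 bases only.

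Timp4, the inhibitor with the most restricted expression in the family and a known product of heart and vessels, was lower in every Notch3-/- pool on both of its probe sets. The brighter one, set 1, read 6.79, 6.88 and 6.75 in the Notch3-/- pools, against 7.93, 8.22 and 8.31 in the Notch3+/+ pools. The gap between the highest Notch3-/- pool and the lowest Notch3+/+ pool was wider than the range within either genotype. The mean was 6.81 ± 0.067 in Notch3-/- and 8.15 ± 0.20 in Notch3+/+ arteries (SD, n = 3 each), a change of -1.35 (SE 0.11, 95% interval -1.61 to -1.09) and an adjusted p of 0.00505 from limma. On a linear scale this is 2.54-fold lower RNA.

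Set 2 of Timp4 also separated the genotypes. It read 6.49, 6.42 and 6.35 in the Notch3-/- pools, against 7.70, 7.89 and 7.95 in the Notch3+/+ pools, again without overlap. The change was -1.43 (SE 0.093), which is 2.69-fold lower RNA, with a limma adjusted p of 0.00202. By unadjusted p, set 1 ranked 19 and set 2 ranked 7 of 27027, and by size of change they ranked 31 and 29. Both Timp4 sets ordered the Notch3+/+ pools alike, pool 1 lowest and pool 3 highest, while the Notch3-/- pools were closer together.

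The call on set 1 was lost without Notch3-/- replicate 3 (adjusted p = 0.0634) and without Notch3+/+ replicate 2 (adjusted p = 0.0582), with changes of -1.32 and -1.31. Set 2 kept its call in each of the 6 fits without 1 array (adjusted p 0.00803 to 0.0415). Whole arteries were measured, so fewer cells that make Timp4 and less Timp4 RNA per cell cannot be told apart.

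**Figure D1:**
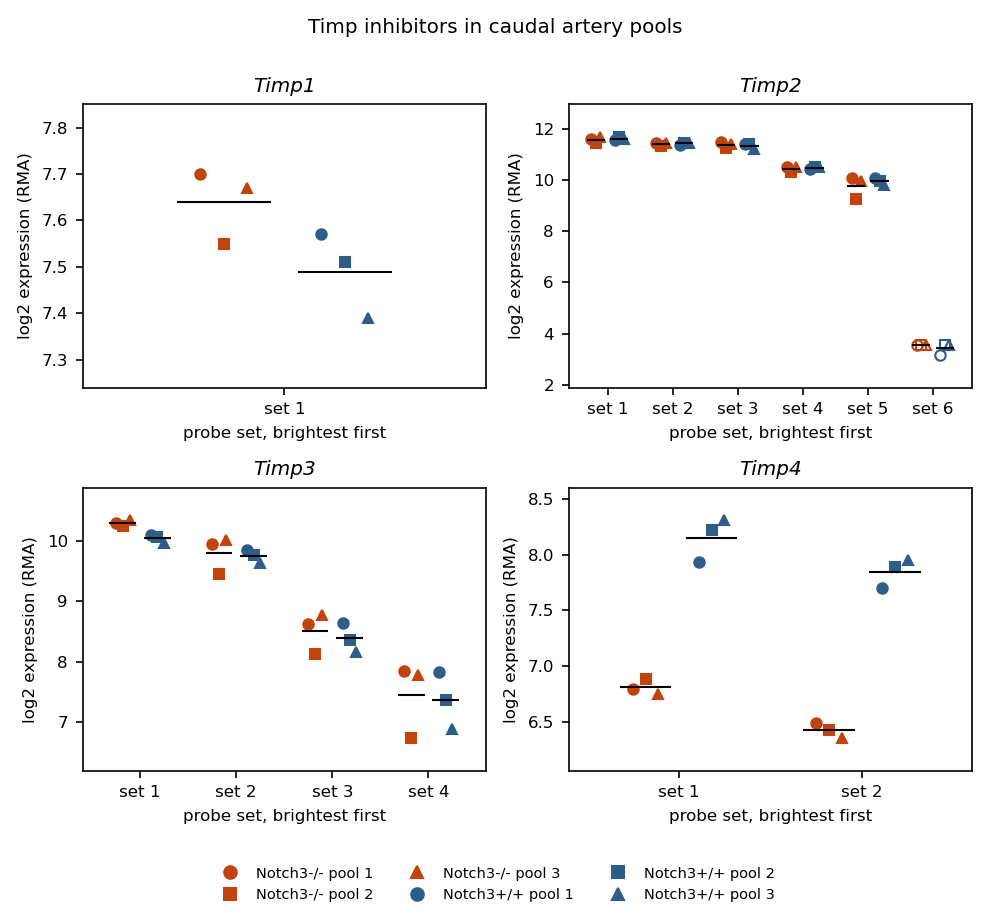
Log2 expression (y axis) of each probe set of the 4 Timp inhibitors, brightest first (x axis), in Notch3-/- pools (orange, left of each pair) and Notch3+/+ pools (blue, right), with a bar at each group mean and open symbols for a probe set below the filter on low values. The Timp4 groups are apart on both probe sets, at 6.35 to 6.88 in Notch3-/- pools, against 7.70 to 8.31 in Notch3+/+ pools, while the Timp1 and Timp2 groups overlap.

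Neither the gene around Timp4 nor any of its measured neighbours passed the test. Syn2, the synapsin gene that holds Timp4, read 4.07, 3.93 and 4.02 in Notch3-/- and 4.03, 4.03 and 4.17 in Notch3+/+ pools, close to the filter level, with a change of -0.07 (adjusted p = 0.762, limma). Beyond Syn2, the neighbours Tamm41, Vgll4 and Atg7 on one side had changes of 0.07, 0.04 and -0.08. Pparg, the fat cell nuclear receptor on the other side, had a change of -0.02. Syn1 and Syn3, which hold Timp1 and Timp3, had changes of -0.05 and 0.01. They were dim too, at mean levels of 3.86 and 4.49 beside the filter of 3.825.

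Among 12731 other genes, the profiles most like that of Timp4 over the 6 arrays, each centred on its own mean, were those of Kcna5, Grip2, Hp, Pgam2 and Rcan2. Their root mean squared differences from Timp4 were 0.11, 0.13, 0.19, 0.19 and 0.19 log2 units. Kcna5, a voltage-gated potassium channel, read 5.66, 5.91 and 5.71 in Notch3-/- pools, against 6.92, 6.92 and 7.15 in Notch3+/+ pools. As on set 1 of Timp4, pool 2 was the highest of its Notch3-/- pools, whereas on set 2 of Timp4 pool 1 was the highest, at 6.49. All 5 were lower in every Notch3-/- pool than in any Notch3+/+ pool, which comes with a search for profiles close to that of Timp4.

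Timp3, an inhibitor that stays bound to the matrix after secretion, was measured by 4 probe sets that did not give 1 answer. Set 1 read 10.30, 10.25 and 10.34 in Notch3-/- pools, against 10.09, 10.07 and 9.97 in Notch3+/+ pools. These groups did not overlap, which was so for 16.2% of all 27027 probe sets and 17.3% of genes, and the change of 0.25 (SE 0.076, 95% interval 0.075 to 0.43) had an adjusted p of 0.298 in limma and an unadjusted p of 0.0116. The other Timp3 sets had changes of 0.05, 0.12 and 0.09, and their groups overlapped.

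On the dimmer Timp3 sets, Notch3-/- pool 2 lay apart from the other Notch3-/- pools. On set 4 the Notch3-/- pools read 7.85, 6.74 and 7.79, against 7.84, 7.37 and 6.90 in the Notch3+/+ pools, and pool 2 was likewise the lowest Notch3-/- pool on sets 2 and 3. Without Notch3-/- replicate 2 the changes of the 4 sets were 0.28, 0.23, 0.32 and 0.45 from brightest to dimmest, with adjusted p of 0.350 or more. Leaving out other arrays moved the dimmer sets the other way. Set 4 was -0.105, -0.075 and -0.145 without Notch3-/- replicate 1, Notch3-/- replicate 3 and Notch3+/+ replicate 3, and set 2 was -0.015, -0.05 and -0.0067 in the same fits. Set 3 was -0.01 without Notch3-/- replicate 3, so only set 1 kept its direction in all 6 fits, at 0.22 to 0.28. The part of that pool in the Timp3 result beyond these values was not tested.

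Timp2, an inhibitor that also helps Mmp14 to activate pro-Mmp2 at the cell surface, showed no difference that passed the test on any of 5 probe sets. Set 1 read 11.59, 11.45 and 11.67 in Notch3-/- pools, against 11.57, 11.66 and 11.60 in Notch3+/+ pools. Its change of -0.04 had a 95% interval of -0.24 to 0.16 and an adjusted p of 0.879. Changes over the 5 sets ran from -0.17 to 0.04. The lowest belonged to set 5, where Notch3-/- pool 2 read 9.27 and its companions 10.09 and 9.95, and without Notch3-/- replicate 2 that change was 0.08. A sixth Timp2 probe set lay below the filter, at 3.55 in each Notch3-/- pool and 3.17 to 3.56 in Notch3+/+ pools.

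Timp1, an inducible inhibitor linked to inflammation and injury, had 1 probe set. It read 7.70, 7.55 and 7.67 in Notch3-/- pools, against 7.57, 7.51 and 7.39 in Notch3+/+ pools, and the groups overlapped at Notch3-/- pool 2 and Notch3+/+ pool 1. The change was 0.15 (SE 0.086, 95% interval -0.050 to 0.35) with a limma adjusted p of 0.549. By brightest probe set, 1 of the 4 inhibitor genes fell, beside 0.126% of 12732 genes that fell, and 0 rose. Their median change was 0.055, beside -0.0033 over all genes.

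Of the 5 tested enzymes, 0 passed in limma at an adjusted or an unadjusted p under 0.05. Their changes were of a size with those of Timp1 and set 1 of Timp3, which did not pass either, and inhibitors and enzymes were not tested against each other. All 9 tested enzyme probe sets had a positive change, between 0.07 and 0.25, whereas 48.1% of all probe sets and 49.5% of genes did. The probe sets of 1 gene share their target and the arrays share pools, so these are not 9 separate observations. Mmp3, Mmp11 and set 3 of Mmp14 had negative changes when 1 array was left out, -0.062 for Mmp3 without Notch3-/- replicate 3. The median over the 5 genes was 0.15, and the smallest adjusted p was 0.517.

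Mmp2, gelatinase A, which degrades denatured collagen and basement membrane collagen, read 10.37, 10.13 and 10.53 in Notch3-/- pools on its brighter probe set, against 10.17, 10.21 and 9.91 in Notch3+/+ pools. The groups overlapped, since Notch3-/- pool 2 lay below Notch3+/+ pools 1 and 2. The change was 0.25 (SE 0.13, 95% interval -0.054 to 0.55, adjusted p = 0.521, limma), and 0.15 on the other Mmp2 set. Leaving out 1 array gave 0.15 to 0.35 on the brighter set, lowest without Notch3-/- replicate 3 or Notch3+/+ replicate 3 and highest without Notch3-/- replicate 2 (adjusted p 0.418 or more). On the other set it gave 0.045 (without Notch3-/- replicate 3) to 0.26.

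Mmp14, the membrane-bound collagenase that activates pro-Mmp2, had 3 probe sets with changes of 0.15, 0.18 and 0.17, none of which passed. Leaving out 1 array gave 0.05 to 0.27 on set 1 (lowest without Notch3-/- replicate 1) and 0.088 to 0.28 on set 2 (lowest without Notch3+/+ replicate 3). The dimmest, set 3, was -0.005 when Notch3+/+ replicate 3 was omitted and 0.365 when Notch3+/+ replicate 2 was. On the brightest, the pools read 9.43, 9.0 and 9.28 in Notch3-/- and 9.32, 9.04 and 8.91 in Notch3+/+ arteries. Pool 2 was again the lowest of the Notch3-/- pools, and pool 3 the lowest of the Notch3+/+ pools. The 95% interval of that change was -0.19 to 0.48.

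Mmp23, a small membrane-anchored member of the family without the usual hemopexin domain, had 1 probe set on which the groups did not overlap, the only 1 of the 9 tested enzyme sets, beside 16.2% of all probe sets. There it read 8.83, 8.79 and 8.72 in Notch3-/- pools, against 8.58, 8.64 and 8.68 in Notch3+/+ pools, a change of 0.15 (SE 0.076) with a limma adjusted p of 0.517. The gap between the closest pools was small beside the range within each genotype. On the second Mmp23 set the groups overlapped and the change was 0.22, with 0.12 to 0.33 when 1 array was left out (lowest without Notch3-/- replicate 1).

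Mmp3, or stromelysin 1, which cuts proteoglycans and activates other Mmp proenzymes, read 7.33, 7.56 and 7.85 in Notch3-/- pools, against 7.62, 7.54 and 7.36 in Notch3+/+ pools. The groups overlapped fully, with the change of 0.07 falling inside an interval of -0.26 to 0.40. Mmp11, or stromelysin 3, read 5.81, 5.38 and 5.44 in Notch3-/- pools and 5.41, 5.44 and 5.44 in Notch3+/+ pools. Its change was 0.11, and -0.02 without Notch3-/- replicate 1, the one pool above the rest. Mmp9, gelatinase B, a product of leukocytes and inflamed vessels, lay below the filter on both probe sets, with set 1 between 3.55 and 3.65 in Notch3-/- pools, against 3.48 to 3.69 in Notch3+/+ pools, and was not tested.

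**Figure D2:**
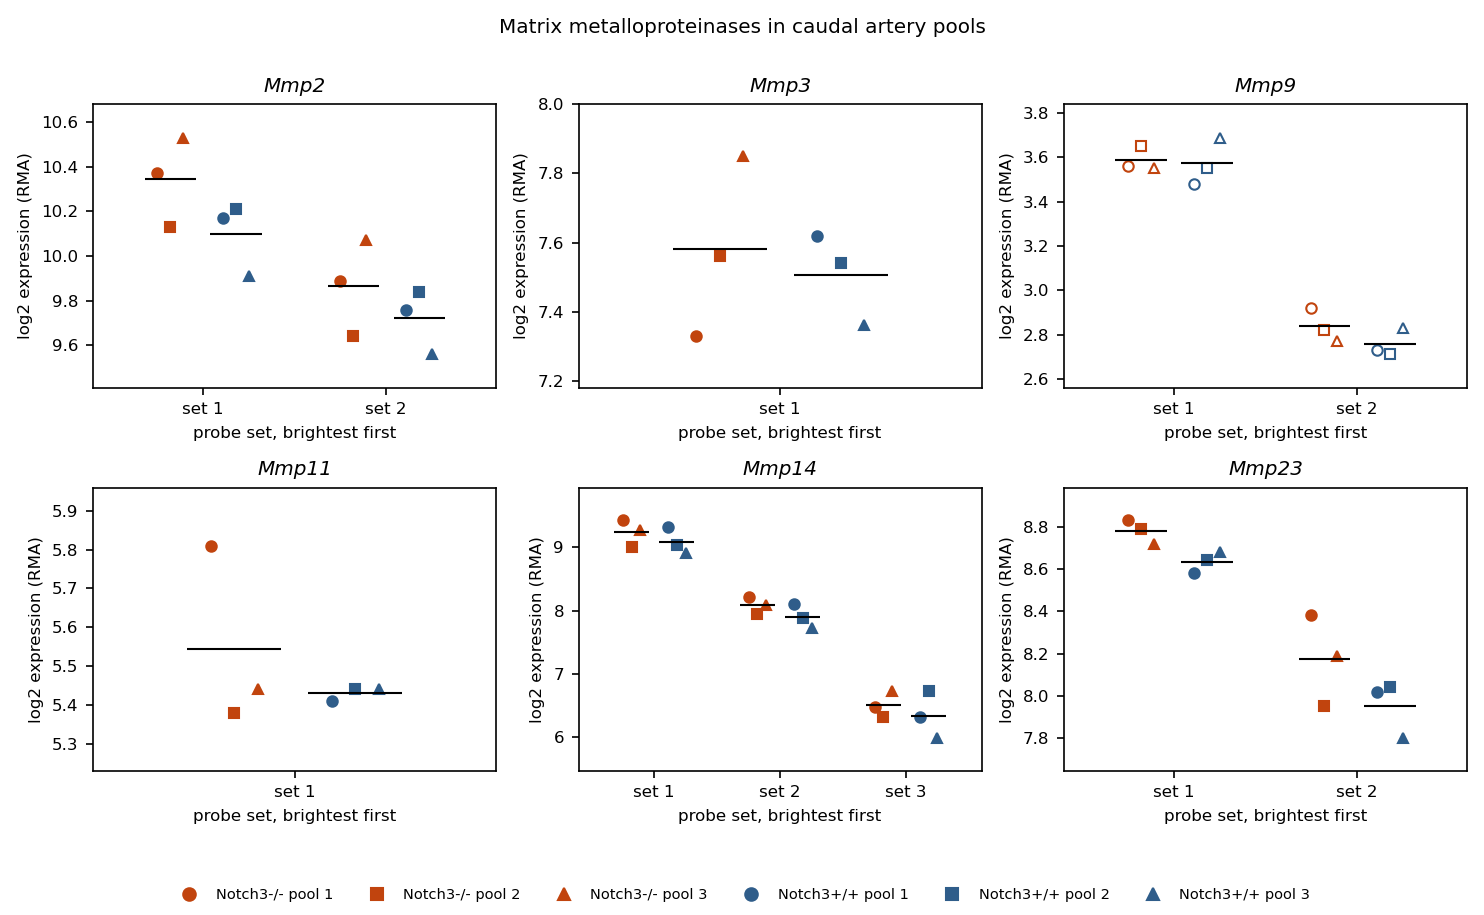
Log2 expression (y axis) of each probe set of the 6 matrix metalloproteinases, brightest first (x axis), in Notch3-/- pools (orange, left of each pair) and Notch3+/+ pools (blue, right), with a bar at each group mean; open symbols mark sets below the filter. Groups overlap on every tested set except the brighter one of Mmp23, where the Notch3-/- pools sit at 8.72 to 8.83 and the Notch3+/+ pools at 8.58 to 8.68.

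**Figure D3:**
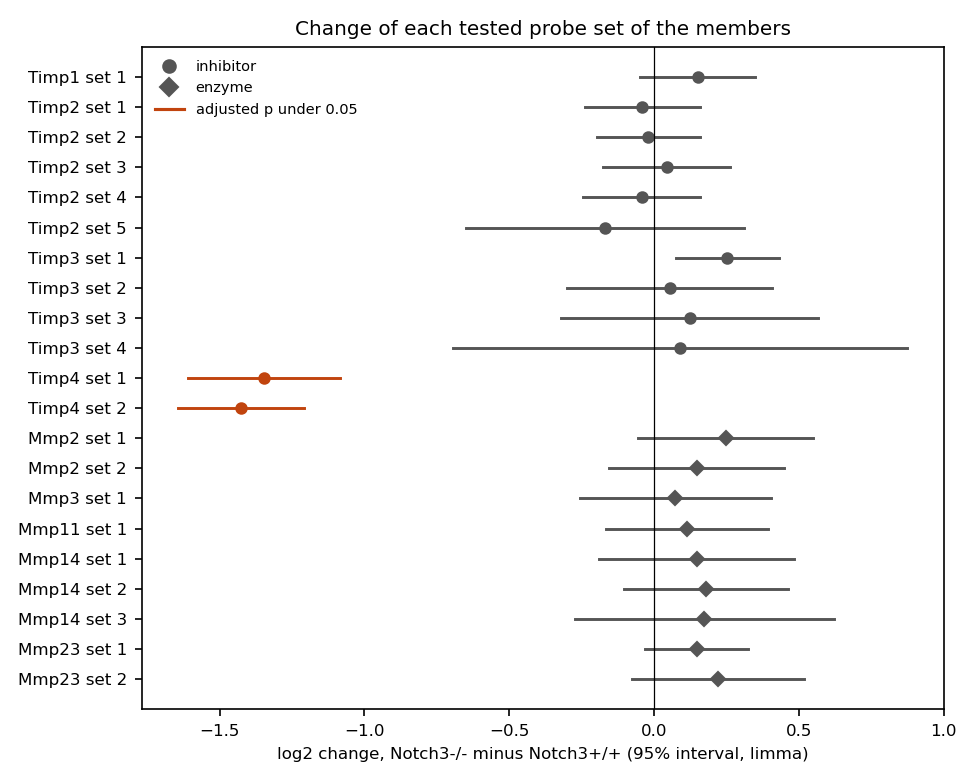
Log2 change, Notch3-/- minus Notch3+/+ (x axis), with its 95% interval from limma, for each of the 21 tested probe sets of the members (y axis), inhibitors as circles and enzymes as diamonds. Both Timp4 sets lie near -1.4, in orange, and the 9 enzyme sets lie between 0.07 and 0.25 with intervals that include 0.

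The profiles closest to that of Mmp2, the enzyme with the largest change, were those of Cited2, Cd33, Adamtsl4, Dnm1 and C1ra, at root mean squared differences of 0.054 to 0.062. Cited2, a transcriptional coregulator, read 8.14, 7.95 and 8.22 in Notch3-/- pools, against 7.83, 7.91 and 7.66 in Notch3+/+ pools. Like Mmp2, it was lowest in pool 2 of the Notch3-/- pools and in pool 3 of the Notch3+/+ pools, a likeness that the search favours. None of these 5 genes passed the test, with adjusted p of 0.361 or more.

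Markers of other cell types were read in the same fit, and of those listed here only Dpt passed. Macrophage markers were positive in 9 of 9 (median change 0.41, 0 passing), with a mean level per pool of 7.47 to 7.99 in Notch3-/- pools, against 6.88 to 7.60 in Notch3+/+ pools. Mast cell markers were positive in 7 of 7 (median 0.76, 0 passing), at 7.12 to 7.72 in Notch3-/- pools, against 6.26 to 7.29 in Notch3+/+ pools. Of 8 adventitial fibroblast markers 7 were positive (median 0.19, with Dpt passing at 0.58 and an adjusted p of 0.0499), at 11.19 to 11.33 in Notch3-/- pools, above the 10.92 to 11.10 of Notch3+/+ pools. Macrophages and fibroblasts can make Mmp2, Mmp14 and Timp1, and the part of these cells in the enzyme values was not tested. Smooth muscle markers had a median of -0.06, with 3 of 7 positive and 0 passing. Their mean level per pool was 10.52 to 10.61 in Notch3-/- pools, against 10.53 to 10.85 in Notch3+/+ pools. They were split, with changes of 0.51 for Cnn1, -0.58 for Smtn and -0.39 for Myocd. These 3 had an unadjusted p under 0.05 in limma, beside 11.9% of all genes. So did 4 of 9 macrophage, 4 of 7 mast cell, 4 of 8 adventitial fibroblast and 4 of 8 endothelial markers. Among adipocyte markers it was 1 of 5, and among skeletal muscle markers 2 of 6. The part of smooth muscle cells in the Timp4 result was not tested. Endothelial markers were negative in 7 of 8 (median -0.25, 0 passing), at 8.54 to 8.75 in Notch3-/- pools, against 8.82 to 8.94 in Notch3+/+ pools, and their part in the fall of Timp4 was not tested. Fat and striated muscle can make Timp4 too. Adipocyte markers were negative in 4 of 5 (median -0.11, 0 passing), at 8.14 to 8.47 in Notch3-/- pools, against 8.42 to 8.55 in Notch3+/+ pools, with Lep below the filter. Skeletal muscle markers were negative in 6 of 6 (median -0.24, 0 passing), at 5.69 to 6.75 in Notch3-/- pools, against 6.29 to 6.64 in Notch3+/+ pools, with Myh4 below the filter. The part of these tissues in the Timp4 result was not tested either.

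Many of the other Mmp genes on the array were dim. Of 12 further Mmp genes with a probe set of 1 symbol, 7 lay below the filter: the collagenase genes Mmp1a, Mmp1b, Mmp8 and Mmp13, the stromelysin gene Mmp10, the macrophage elastase gene Mmp12 and the enamel protease gene Mmp20. Of the other 5, 0 passed in limma and 1 had an unadjusted p under 0.05, beside 11.9% of all genes, with a median change of 0.07. That gene was Mmp19, which read 4.61, 5.24 and 4.79 in Notch3-/- pools, against 4.57, 4.32 and 3.89 in Notch3+/+ pools, a change of 0.62 (SE 0.21, adjusted p = 0.353). The closest pools of the genotypes nearly met there, and the groups overlapped on the second Mmp19 set, which had a change of 0.39. Mmp16 had a change of -0.18, Mmp7 of 0.09 and Mmp17 of 0.07.

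Genes outside the Timp family that control or host Mmp activity were less uniform. Of 12 tested, 1 rose and 0 fell, beside 0.196% of genes that rose, and 5 had an unadjusted p under 0.05, where 11.9% of all genes did. Cd44, a hyaluronan receptor that holds Mmp9 at the cell surface, read 8.74, 8.94 and 8.88 in Notch3-/- pools, against 8.24, 8.18 and 8.30 in Notch3+/+ pools. It rose by 0.61 (SE 0.085) with an adjusted p of 0.0499, a call lost whichever array was left out (adjusted p 0.0578 to 0.329). The second Cd44 set had a change of 0.60 and the third, dimmest one 0.21. Leukocytes carry Cd44, and the macrophage and mast cell markers had positive changes; their part in the Cd44 result was not tested.

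The remaining 4 of these regulators had an unadjusted p under 0.05 without passing. Pcsk5, a proprotein convertase of the kind that activates membrane-type Mmp proteins, read 7.79, 8.41 and 7.96 in Notch3-/- pools, against 7.23, 7.09 and 7.24 in Notch3+/+ pools. Its change was 0.87 (adjusted p = 0.111). The other Pcsk5 sets had changes of 0.64 (adjusted p = 0.0653) and 0.57 (adjusted p = 0.248). Genotypes did not overlap on any of the 3 sets, which share their target, beside 16.2% of all probe sets without overlap. Pcsk6, a related convertase, had a change of -0.46. Pcolce, which enhances procollagen cleavage, had 0.35 on its brighter set and 0.00 on the other. Reck, a membrane-anchored inhibitor of Mmp2, Mmp9 and Mmp14, read 9.17, 9.39 and 9.30 in Notch3-/- pools, against 9.01, 9.12 and 8.81 in Notch3+/+ pools, a change of 0.31 (adjusted p = 0.361).

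Plasmin activates several Mmp proenzymes, and of 6 tested genes of plasminogen activation 0 passed in limma and 2 had an unadjusted p under 0.05, beside the 11.9% of all genes. Plat, the tissue plasminogen activator, read 8.06, 8.12 and 8.14 in Notch3-/- pools, against 7.65, 7.69 and 7.84 in Notch3+/+ pools. The groups did not overlap, which was so for 17.3% of genes, and the change was 0.38 (SE 0.083, adjusted p = 0.182). Serpinf2, the plasmin inhibitor, had a change of -0.23, the receptor gene Plgrkt 0.09 and S100a10 0.02. The urokinase gene Plau and Plg lay below the filter.

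Among 24 matrix proteins that these enzymes cut, 1 rose and 0 fell, 5 had an unadjusted p under 0.05, where 11.9% of genes did, and the median change was -0.04. Tnc, the matricellular protein tenascin C, read 7.84, 8.08 and 7.99 in Notch3-/- pools, against 7.01, 6.70 and 6.81 in Notch3+/+ pools. It rose by 1.13 (SE 0.11, adjusted p = 0.00983, limma), a call lost without Notch3-/- replicate 3 (0.0924), Notch3+/+ replicate 2 (0.0814) or Notch3+/+ replicate 3 (0.0953). Vcan, the proteoglycan versican, had a change of 0.65 (adjusted p = 0.0706). Col18a1 and Fbln5, a basement membrane collagen and an elastic fibre protein, had -0.35 and 0.22. Elastin and the fibrillar collagens Col1a1, Col1a2 and Col3a1 had changes between -0.05 and 0.09, at the bright end of the scale. Differences can be compressed there, and whether these were was not tested.

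**Figure D4:**
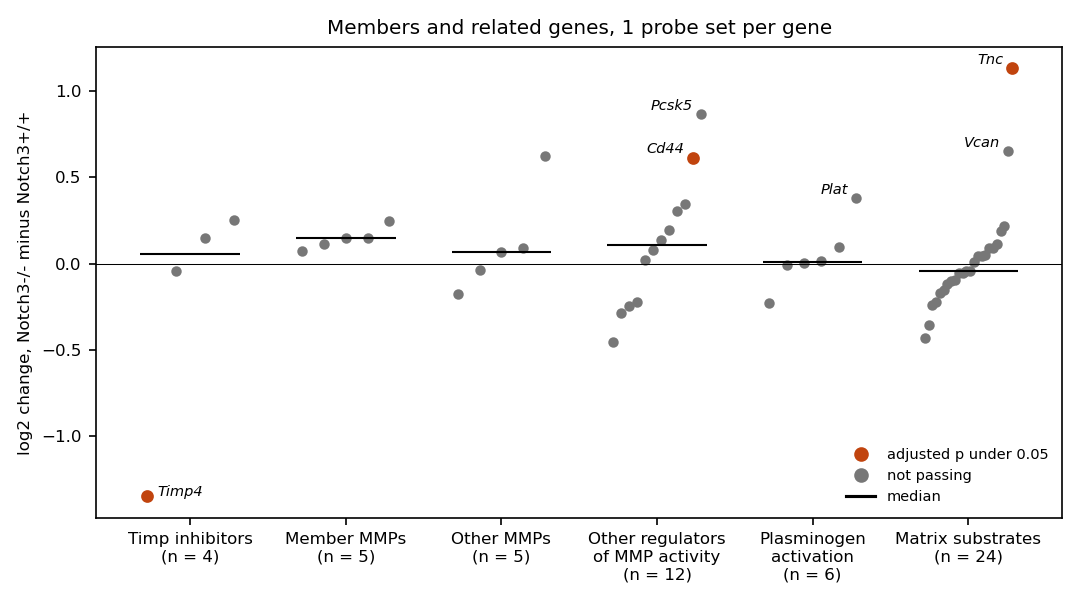
Log2 change, Notch3-/- minus Notch3+/+ (y axis), of the members and of 4 lists of related genes (x axis), 1 probe set per gene, with the median of each list as a bar and orange points for an adjusted p under 0.05 in limma. Timp4 lies at -1.35, Cd44 at 0.61 and Tnc at 1.13, and the 5 member metalloproteinases lie between 0.07 and 0.25.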

How the data were processed

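Total RNA of pooled caudal arteries was extracted with Trizol, and biotinylated cRNA was made from 2.5 µg, per the labels' protocols. The authors deposited 1 log2 value per probe set and array, computed with RMA per the submitters' processing notes, with no version of RMA named in the sources used here. Their range, 1.38 to 13.38, fits a log2 scale. Differences of dim and of very bright probe sets can be compressed in such array values.

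Of 45037 probe sets other than chip controls, those with a mean below the 40th percentile (3.825) were left out. Genotype was fitted as the only term with limma 3.58.1 (lmFit, eBayes) in R 4.3.3, and two-sided p-values were adjusted by Benjamini-Hochberg over the 27027 tested, with a threshold of 0.05. Changes are Notch3-/- minus Notch3+/+, and an adjusted p comes from this fit unless a left-out array or another setting is named beside it. Folds are antilogs. A gene is represented by its probe set with the highest mean. No batch is given in the labels, and 3 arrays per genotype limit the precision.

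Members and lists were chosen with earlier results of these data known. All members are named, and up to 4 genes per list by smallest p. Further genes, among them the chromosomal neighbours and the fibrillar collagens, were named after their values were seen. Likeness was searched over 1 probe set per gene. The fit was tested on simulated data. The filter, variance model, normalization, weights, replicate block, probe set choice and each array were varied.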

Additional observations from a re-analysis of the deposited data

How the results depend on the processing

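Over 15 alternatives the change of Timp4 stayed between -1.46 and -1.27, and it passed in all but 2, those without Notch3-/- replicate 3 and without Notch3+/+ replicate 2. The second Timp4 probe set passed in all 14 run for it. The enzyme genes stayed at 0 calls in every setting. Called probe sets numbered 978 with array weights, against 68 without them, and inhibitor genes called numbered 2, since Timp3 then passed (0.27, adjusted p = 0.0491); the cause was not tested. Leaving out 1 array gave 13 to 62 called probe sets (the fewest, 13, without Notch3+/+ replicate 2; 17 and 37 without Notch3-/- replicates 3 and 2; 23 without Notch3+/+ replicate 3), 1 to 2 member probe sets, and 0 to 1 inhibitor genes. By brightest probe set, the direction turned for 3 of the 9 tested members: Timp2 read 0.0078 with array weights and -0.09 to 0.02 without single arrays, Mmp3 -0.062 to 0.20 and Mmp11 -0.02 to 0.20 without single arrays. Dimmer sets of Timp2, Timp3 and Mmp14 turned as well when 1 array was left out, set 4 of Timp3 between -0.145 and 0.45. Cd44 also missed the threshold with no level filter (0.0576), with arrays weighted by mice pooled (0.0573) and with the replicate block (0.117).

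Deviations of arrays of the same replicate number had r = 0.24, 0.05 and -0.07 for numbers 1 to 3. Arrays of different numbers had r from -0.17 to 0.14. Number 1 lay above that range and the other numbers lay within it, and the numbers were not taken as pairs. With the replicate block 57 probe sets were called, 2 of them members, and Timp4 kept its call.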
